A study of Rattus norvegicus with 6 samples.

Results

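Cholesterol synthesis and its control by SREBP were followed at the transcript level through 32 genes. They were chosen by name as enzymes, regulators and lipid-handling targets of the pathway, with earlier results of these data known. Of the 32 genes, 30 had a probe set annotated to that gene alone, out of 14506 genes named in this way. Each was represented by its probe set with the highest mean over the 6 arrays. Hmgcs1 had no such probe set here, and Srebf1 shared its annotation with Pemt, so neither is given a value. The cells were RBL-2H3, a rat basophilic leukaemia line used as a mast cell model, and every group carried stably overexpressed wild-type Dectin-1, a beta-glucan receptor. There were 3 groups of 2 arrays: control cells left without stimulus, cells given curdlan (an insoluble beta-glucan that Dectin-1 binds), and cells treated first with R406, an inhibitor of the kinase Syk, and afterwards with curdlan. The sources used here do not give doses, times, the species of the receptor or whether the line was a clone, and no group received R406 without curdlan. The design asked which transcripts Dectin-1 stimulation moves and how far Syk is needed for that.

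Cholesterol is built from acetyl-CoA through mevalonate, isoprenoid diphosphates, squalene and lanosterol. SREBP transcription factors are held in the endoplasmic reticulum by SCAP and INSIG proteins when sterols are plentiful, and when sterols fall they travel to the Golgi, are cleaved, and raise the genes of sterol and fatty acid synthesis. For sterols, though not for fatty acid synthesis, liver X receptors (LXR) act in the other direction. Bound by oxysterols, they raise genes for sterol efflux and for the ubiquitin ligase that removes lipoprotein receptors.

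Differences past the test were found in 4 of the 30 genes, all of them in comparisons with R406. With curdlan alone 0 of 30 genes passed the test at an adjusted p under 0.05 (limma), where 1.59% of all probe sets did. At an unadjusted p under 0.05 there were 4. No share over all probe sets was taken for counts at an unadjusted p, here or below. With R406 plus curdlan, the LXR-regulated genes Mylip and Abcg1 stood about 1.5-fold above both other groups, Fasn was lower than with curdlan alone, and Msmo1 was lower than in control cells. Each R406 comparison called 3 of 30 genes, where 7.25% of all probe sets were called against curdlan and 2.23% against control. Over the 14506 named genes, which the 30 belong to, the shares called were 2.13% with curdlan, 9.18% for R406 plus curdlan against curdlan and 3.02% against control, so that 3 of 30 was close to the share against curdlan. The 18 measured sterol enzymes otherwise moved by at most 0.24 log2 units in any comparison.

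All values are log2 signals as deposited. Each change is the difference between 2 group means, given with its standard error (SE) from 1 limma fit to the 6 arrays. Calls required an adjusted p (Benjamini-Hochberg, over the 29214 probe sets) under 0.05. Array medians lay between 7.204 and 7.241, and arrays correlated at 0.9975 to 0.9981 within groups and at 0.9939 to 0.9967 between them. Of 11 measured mast cell markers, 9 had a mean signal above the median of all probe sets, and the tryptase genes Tpsab1 and Tpsb2 did not. The same held for 1 of 7 macrophage, 3 of 5 fibroblast and 0 of 3 lymphocyte markers. The averaged level of the mast cell markers lay between 11.68 and 11.69 in control, 11.66 and 11.68 in curdlan and 11.65 and 11.67 in R406 plus curdlan arrays. The fibroblast markers averaged 7.52 to 7.60, 7.53 to 7.58 and 7.46 to 7.47 in the same order, the macrophage markers 6.54 to 6.58, 6.44 to 6.47 and 6.43 to 6.46, and the lymphocyte markers 5.62 to 5.68, 5.48 to 5.68 and 5.57 to 5.67. In the limma fit 0 of these 26 markers were called in any comparison, and 4, 4 and 6 had an unadjusted p under 0.05 for curdlan against control, R406 plus curdlan against curdlan, and R406 plus curdlan against control. Their part in the results was not tested. In bulk RNA of this kind, fewer cells of a state and less RNA per cell cannot be told apart.

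Promoter windows from RefSeq (build GRCr8, 250 bases before to 50 after the annotated start) were matched for 25 of the 32 genes. Those without one in the table used were Pmvk, Fdft1, Sqle, Stard4, Fasn, Acaca and Abcg1. Those of Mylip, which was higher with R406, of Msmo1, which was lower, and of Insig2, which had the largest difference with curdlan, are printed here to compare their CCAAT boxes, the letters bound by NF-Y, and GC boxes, the letters bound by Sp1, both of which are known partners of SREBP. Capitals mark CCAAT or GGGCGG on either strand. The Mylip window lies at chr17:19514422-19514721 on the minus strand, that of Msmo1 at chr16:29746863-29747162 on the plus strand and that of Insig2 at chr13:35040049-35040348 on the minus strand.
Mylip: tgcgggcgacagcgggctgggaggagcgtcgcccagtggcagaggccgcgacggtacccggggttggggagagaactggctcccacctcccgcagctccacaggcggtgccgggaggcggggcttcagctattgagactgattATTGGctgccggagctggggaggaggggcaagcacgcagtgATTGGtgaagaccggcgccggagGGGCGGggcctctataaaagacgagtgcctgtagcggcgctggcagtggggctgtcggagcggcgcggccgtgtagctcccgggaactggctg
Msmo1: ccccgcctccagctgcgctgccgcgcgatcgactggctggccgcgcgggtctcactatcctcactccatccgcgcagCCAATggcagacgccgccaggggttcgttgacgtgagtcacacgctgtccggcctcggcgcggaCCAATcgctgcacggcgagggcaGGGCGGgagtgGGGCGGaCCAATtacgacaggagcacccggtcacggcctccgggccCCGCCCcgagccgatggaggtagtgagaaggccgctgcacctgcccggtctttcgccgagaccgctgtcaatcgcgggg
Insig2: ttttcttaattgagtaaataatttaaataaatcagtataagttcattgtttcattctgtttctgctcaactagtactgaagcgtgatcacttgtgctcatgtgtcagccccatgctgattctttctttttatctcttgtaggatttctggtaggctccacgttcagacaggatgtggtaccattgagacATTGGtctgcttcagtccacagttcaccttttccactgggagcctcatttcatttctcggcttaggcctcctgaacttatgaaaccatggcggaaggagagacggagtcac

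In these windows Msmo1 held CCAAT boxes beginning 173, 109 and 68 bases before the start, Mylip 107 and 66 bases before it, and Insig2 a single one 61 bases before it. GC boxes began 86, 75 and 29 bases before the start of Msmo1 and 43 bases before that of Mylip, and none was in the Insig2 window. Whether the annotated starts are those used in these cells was not tested. The Insig2 window may lie away from its promoter, so its letters describe that window only. Srebf1 had a pair of annotated starts, so the 25 genes gave 26 windows. CCAAT on either strand was in 20 of the 26, or 76.9%, against 37.5% of all 33469 windows and 38.2% of the 12519 windows of genes measured alone on the array. GGGCGG on either strand was in 21 of 26, or 80.8%, against 33.1% and 50.1%. The E-box CACGTG, which SREBP can bind, was in 4 of 26 (Insig1, Scap, Sc5d and Abca1), or 15.4%, against 6.42% and 7.76%. The sterol regulatory element core TCACNCCAC, read on either strand, was in 0 of 26 and in 1.12% and 1.06% of the same 2 sets of windows. The end of TCACNCCAC can share letters with the start of CACGTG, but no motif contains another, and a match describes the sequence only.

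Of the 3 LXR-regulated genes, Mylip and Abcg1 had the largest differences of the 30 genes in both R406 comparisons. Mylip, which encodes a ubiquitin ligase that sends lipoprotein receptors to degradation, read 7.46 and 7.50 in the control arrays, 7.39 and 7.48 with curdlan, and 8.09 and 8.09 with R406 plus curdlan. Control and curdlan arrays overlapped, and both R406 arrays stood above all 4 others. Its level was 0.65 ± 0.0525 (SE, 2 arrays per group) above curdlan alone, a 1.57-fold rise (limma, Benjamini-Hochberg adjusted p = 0.00537), and 0.61 ± 0.0525 above control, a 1.52-fold rise (adjusted p = 0.015). Between curdlan and control Mylip differed by -0.05 ± 0.0525 (adjusted p = 0.759).

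Abcg1, which encodes a transporter that passes cholesterol to lipoprotein particles, read 10.40 and 10.45 in control, 10.44 and 10.43 with curdlan, and 11.03 and 11.03 with R406 plus curdlan. Both R406 arrays again lay above the other 4. The rise was 0.59 ± 0.046 over curdlan, or 1.51-fold (adjusted p = 0.00494), and 0.61 ± 0.046 over control (adjusted p = 0.0124). Its difference between curdlan and control was 0.01 ± 0.046 (adjusted p = 0.937).

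Abca1, the efflux pump that loads cholesterol onto apolipoprotein A-I, had low signals of 6.57 and 6.63 in control, 6.64 and 6.70 with curdlan and 6.89 and 6.76 with R406 plus curdlan. The 3 groups did not overlap. Its differences did not pass, at 0.15 ± 0.0648 against curdlan (adjusted p = 0.263) and 0.23 ± 0.0648 against control (adjusted p = 0.153). The 95% interval of the latter ran from 0.06 to 0.39, below the estimates of Mylip and Abcg1.

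**Figure D1:**
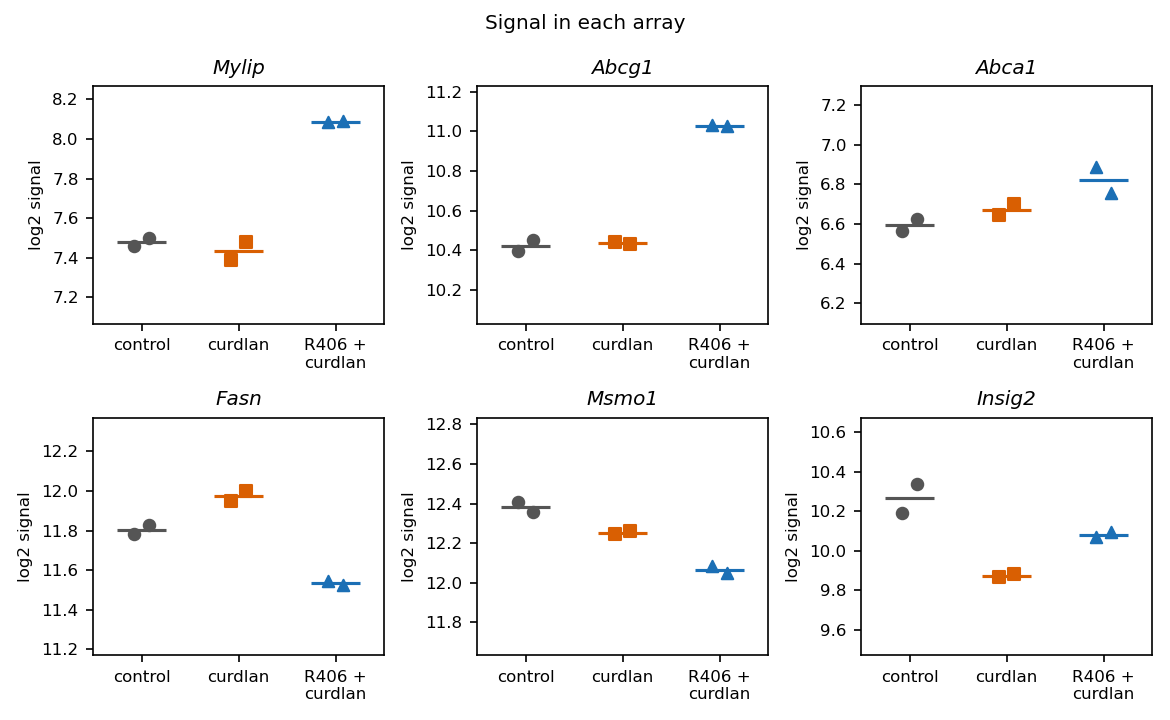
Log2 signal (y axis) of 6 genes in control (circles), curdlan (squares) and R406 plus curdlan (triangles) arrays, 2 arrays per group, with a line at each group mean; every panel spans 1.2 log2 units. Mylip and Abcg1 stand near 8.09 and 11.03 in both R406 arrays, Fasn and Msmo1 are lowest there, and Insig2 is lowest with curdlan alone.

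Among the 4 fatty acid synthesis genes, which SREBP also controls, Fasn fell under R406. Fasn encodes fatty acid synthase and read 11.78 and 11.83 in control, 11.95 and 12.00 with curdlan, and 11.54 and 11.53 with R406 plus curdlan. The groups did not overlap, with curdlan highest and R406 lowest. Against curdlan alone it fell by 0.44 ± 0.0479 on the log2 scale, to a level 1.36-fold lower (limma adjusted p = 0.0106). Its difference from control was -0.27 ± 0.0479 with R406 plus curdlan (adjusted p = 0.066) and 0.17 ± 0.0479 with curdlan alone (adjusted p = 0.201), neither of which passed. Acaca, which makes malonyl-CoA for the synthase, differed from curdlan by -0.16 ± 0.0662, Scd, the stearoyl-CoA desaturase gene, by -0.07 ± 0.0447, and Acly, which supplies cytosolic acetyl-CoA, by -0.06 ± 0.0439, with adjusted p from 0.24 to 0.495. In all 4 genes both R406 arrays lay below both curdlan arrays and below both control arrays. Over all probe sets, 25.6% and 27.8% were lower without overlap in the same comparisons. Such shares were not taken over brighter probe sets alone.

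The sterol enzymes were followed in the order of the pathway. For the steps to isoprenoids, Acat2 (acetoacetyl-CoA thiolase), Mvk and Pmvk (the mevalonate kinases), Mvd (the decarboxylase), Idi1 (the isomerase), Fdps (farnesyl diphosphate synthase) and Ggps1 (geranylgeranyl diphosphate synthase), 0 of 7 were called in any comparison. Their differences ranged from -0.10 for Mvk to 0.03 for Idi1 with curdlan, and from -0.15 for Idi1 to 0.14 for Mvk between R406 plus curdlan and curdlan. Shares called over all probe sets were 1.59% with curdlan, 7.25% between the stimulated groups and 2.23% for R406 plus curdlan against control. The count of 0 of 7 stood near those shares. Mvk, at 10.11 and 10.15 in control, 10.03 and 10.04 with curdlan and 10.18 and 10.17 with R406 plus curdlan, was lowest with curdlan without overlap, but its difference of 0.14 ± 0.0436 between the stimulated groups did not pass (limma adjusted p = 0.142).

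At the branch point into sterols, Fdft1, the squalene synthase gene, read 11.81 and 11.68 in control, 11.55 and 11.48 with curdlan and 11.59 and 11.51 with R406 plus curdlan. Both stimulated groups lay below control and overlapped each other. The differences from control were -0.24 ± 0.0666 with curdlan (limma adjusted p = 0.207) and -0.20 ± 0.0666 with R406 plus curdlan (adjusted p = 0.193). Sqle, the squalene epoxidase gene, had 10.72 and 10.73 in control, 10.63 and 10.68 with curdlan and 10.61 and 10.54 with R406 plus curdlan. Its groups did not overlap, and its difference between R406 plus curdlan and control was -0.14 ± 0.0494 (adjusted p = 0.199). Lss, which closes squalene epoxide to lanosterol, differed from control by -0.10 ± 0.0444 with curdlan and -0.11 ± 0.0444 with R406 plus curdlan (adjusted p = 0.39 and 0.26).

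Past lanosterol, Msmo1 was the only enzyme called. Msmo1 encodes the methylsterol monooxygenase that starts removal of the C4 methyl groups, and it read 12.41 and 12.36 in control, 12.24 and 12.26 with curdlan, and 12.09 and 12.05 with R406 plus curdlan. The 3 groups stepped down in that order without overlap. With R406 plus curdlan it fell by 0.32 ± 0.0471 against control, to a level 1.25-fold lower (limma adjusted p = 0.047). Its differences between curdlan and control, -0.13 ± 0.0471, and between the stimulated groups, -0.19 ± 0.0471, did not pass (adjusted p = 0.308 and 0.0913). Sc5d, the sterol desaturase gene, came next: 12.56 and 12.58 in control, 12.58 and 12.55 with curdlan, and 12.38 and 12.32 with R406 plus curdlan. Control and curdlan overlapped and R406 lay below both, at -0.22 ± 0.048 against curdlan (adjusted p = 0.0664) and -0.22 ± 0.048 against control (adjusted p = 0.0922).

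The remaining late enzymes were Cyp51 (lanosterol demethylase), Tm7sf2 (sterol reductase), Nsdhl and Hsd17b7 (partners of Msmo1 in demethylation), Ebp (sterol isomerase) and Dhcr7 (the reductase of the last step). With curdlan their differences from control ran from -0.12 for Nsdhl to 0.05 for Hsd17b7. Between the stimulated groups they ran from -0.10 for Cyp51 to 0.06 for Dhcr7, and none of these 6 genes was called in any comparison (limma adjusted p from 0.272 to 0.975). That count stood near the shares of all probe sets called, 1.59% with curdlan, 7.25% between the stimulated groups and 2.23% against control. Hsd17b7, at 5.99 to 6.10 over the 6 arrays, lay below the median signal of all probe sets.

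**Figure D2:**
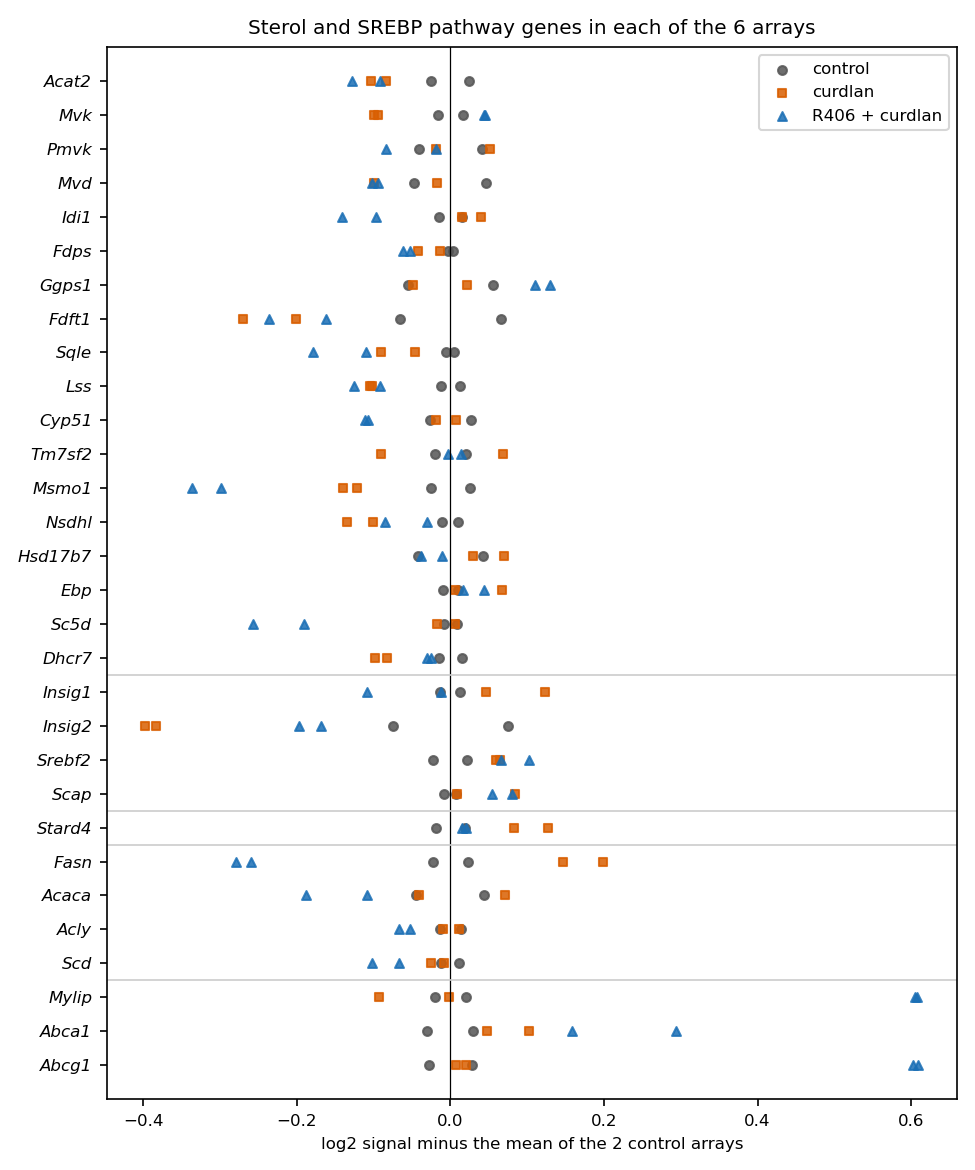
Each of the 30 genes in each of the 6 arrays, as log2 signal minus the mean of the control arrays (x axis), in pathway order with lines between enzymes, SREBP regulators, the sterol carrier, fatty acid synthesis and LXR-regulated genes. Mylip and Abcg1 lie near 0.61 in both R406 arrays, and most enzymes lie within 0.24 of control.

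Taken as a list, 9 of 18 sterol enzymes were lower and 0 higher in both curdlan arrays than in both control arrays, where 23.9% of all probe sets were lower and 19.2% higher. Their median difference was -0.043, beside -0.011 over all probe sets and -0.02 over named genes, and it was -0.065 without curdlan array 2. Between R406 plus curdlan and control, 12 were lower and 3 (Mvk, Ggps1 and Ebp) higher without overlap, where 27.8% and 25.7% of probe sets were. The median was -0.078, beside -0.01 over all probe sets and -0.02 over named genes. Between the stimulated groups 7 were lower and 4 higher without overlap, where 25.6% and 27.7% of probe sets were, and the median was -0.023 beside -0.002. That median was -0.0024 with arrays centred on their median, -0.038 after quantile normalization and -0.041 without curdlan array 2. The count of 12 became 13 after quantile normalization and 10 with arrays centred on their median, and the median of -0.078 became -0.1 and -0.053. The 0 higher with curdlan became 2 and 1 under the same scalings, and the 7 lower between the stimulated groups became 10 and 5. These lists carry no test, and with 1 exception their members did not pass singly. Shares without overlap were taken over all probe sets only, and 28 of the 30 genes were brighter than the median. Calls were more frequent among brighter probe sets, at 15.6% in place of 2.23% for R406 plus curdlan against control. The shares are therefore not those of probe sets of like signal.

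Of the 4 measured regulators, none was called. With so few genes this stood near the shares of all probe sets called, 1.59% with curdlan, 7.25% between the stimulated groups and 2.23% against control. Insig2, which retains SCAP in the endoplasmic reticulum, had the largest difference with curdlan of all 30 genes. It read 10.19 and 10.34 in control, 9.87 and 9.88 with curdlan and 10.07 and 10.10 with R406 plus curdlan. The groups did not overlap, with R406 between the others. The difference was -0.39 ± 0.0637 with curdlan (limma adjusted p = 0.0664) and 0.21 ± 0.0637 between the stimulated groups (adjusted p = 0.141), and the 95% interval of the former ran from -0.55 to -0.23. Insig1, its SREBP-induced relative, read 12.59 and 12.61 in control, 12.65 and 12.72 with curdlan and 12.49 and 12.59 with R406 plus curdlan. Its difference with curdlan was 0.08 ± 0.0579 (adjusted p = 0.596) and between the stimulated groups -0.14 ± 0.0579 (adjusted p = 0.234). A second, dimmer Insig1 probe set gave 0.04 and -0.19 for the same differences (adjusted p = 0.835 and 0.123).

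Srebf2, the main SREBP gene of sterol synthesis, read 11.28 and 11.23 in control, 11.31 and 11.32 with curdlan and 11.32 and 11.36 with R406 plus curdlan. Its differences from control were 0.06 ± 0.0461 and 0.08 ± 0.0461, with 95% intervals from -0.06 to 0.18 and from -0.03 to 0.20 (limma adjusted p = 0.632 and 0.378). Scap, the sterol-sensing escort of SREBP, differed from control by 0.05 ± 0.0495 and 0.07 ± 0.0495 (adjusted p = 0.745 and 0.499). Stard4, which carries cholesterol between membranes, had 0.10 ± 0.0462 with curdlan and -0.09 ± 0.0462 between the stimulated groups (adjusted p = 0.4 and 0.356).

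Set against all probe sets, the 0 of 30 genes called with curdlan (limma, adjusted p from 0.0664 to 0.993) compare with 1.59% called over the table, 1.04% higher and 0.551% lower. At an unadjusted p under 0.05 there were 4 of 30, namely Fdft1, Msmo1, Insig2 and Fasn. The 95% intervals of all 30 lay between -0.55 and 0.30, so that differences beyond 1.47-fold lower or 1.23-fold higher were outside each gene's own interval. Between R406 plus curdlan and curdlan, 2 rose and 1 fell, beside 7.25% called over the table, 4.02% higher and 3.23% lower. Between R406 plus curdlan and control, 2 rose and 1 fell, beside 2.23%, 1.44% higher and 0.791% lower. The intervals of the 27 genes not called lay between -0.34 and 0.37 in the former and between -0.39 and 0.39 in the latter. The median difference over the 30 genes was -0.008 with curdlan, -0.023 between the stimulated groups and -0.059 against control.

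**Figure D3:**
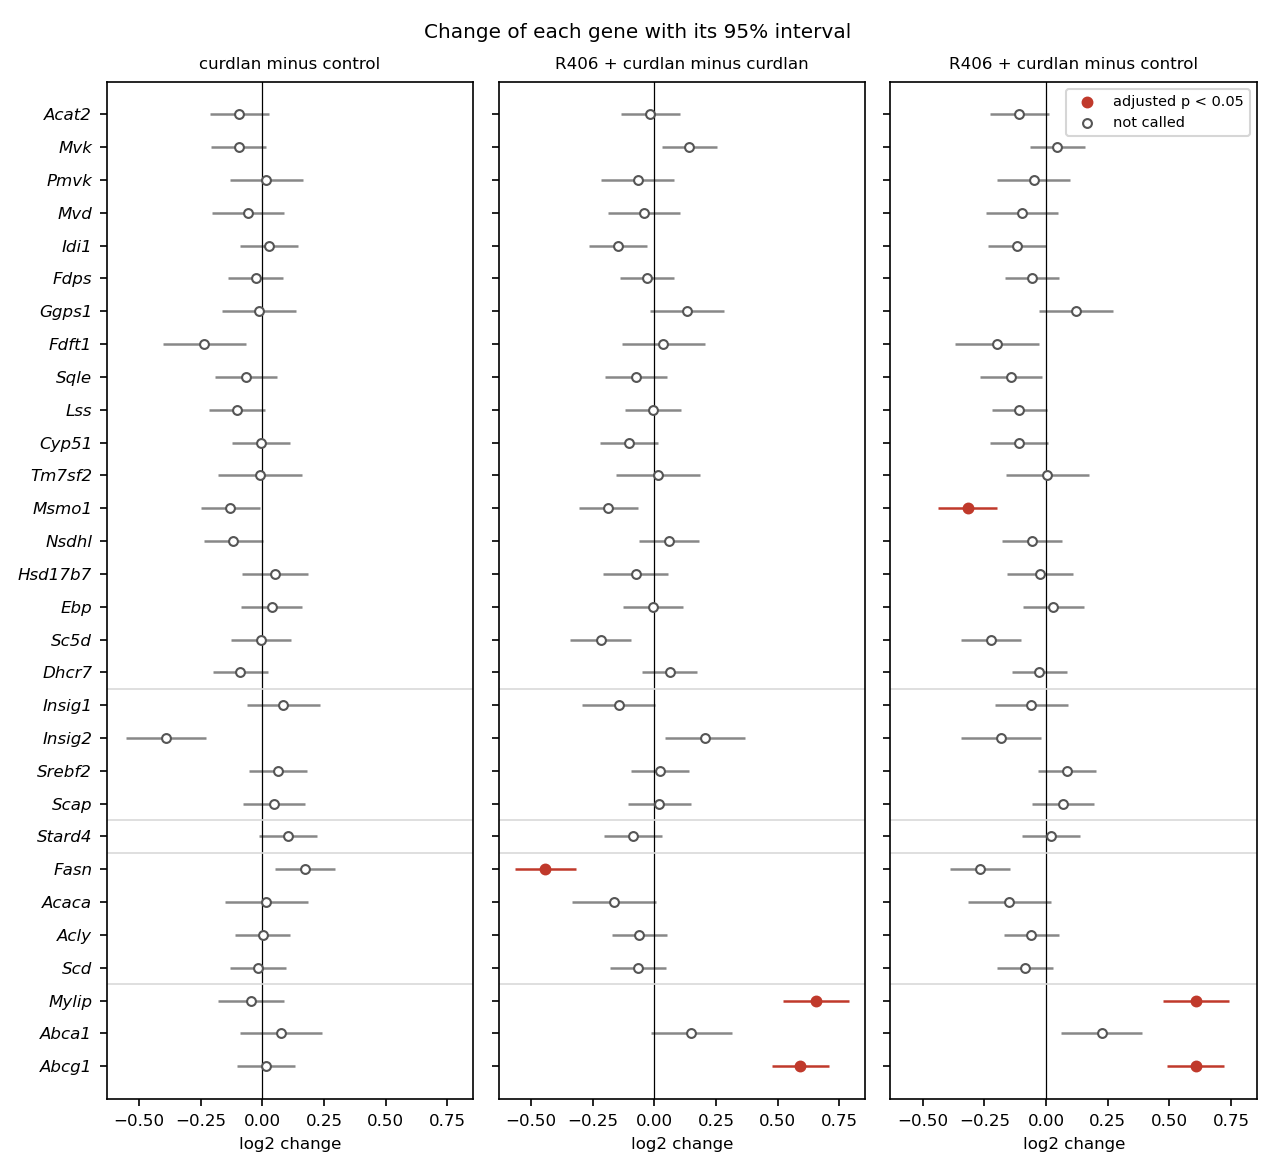
Difference of group means in log2 units (x axis) for the 30 genes in the 3 comparisons, with 95% intervals; filled red points passed at an adjusted p under 0.05 over all probe sets. No point is filled for curdlan against control, and Mylip and Abcg1 are filled in both R406 comparisons, near 0.6.

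The calls rested on few arrays. Without R406 plus curdlan array 1 or 2, 0 genes were called between the stimulated groups, with adjusted p from 0.0598 to 0.0613 for Mylip and Abcg1 and of 0.0883 and 0.102 for Fasn. Fasn was also not called without curdlan array 1 or 2 (0.0569 and 0.0629). Against control, 0 were called without either control array or either R406 array, and Msmo1 was not called without any 1 of the 6 arrays, with adjusted p from 0.096 to 0.278. Msmo1 was also not called with arrays centred on their median (0.0602) or in a fit of the 4 arrays compared (0.096). The sizes held in the fits without a curdlan or R406 array. Against curdlan, Mylip ran there from 0.61 to 0.70, Abcg1 from 0.59 to 0.60 and Fasn from -0.47 to -0.42. Leaving out a control array cannot change these differences. With a mean-variance trend in the model 4, 8 and 6 of 30 genes were called for curdlan against control, R406 plus curdlan against curdlan, and R406 plus curdlan against control, where 5.33%, 12.9% and 8.01% of all probe sets were. When the fit kept the 14607 probe sets brighter than the median, 2, 8 and 5 of 28 genes were called, where 10.8%, 25.4% and 15.6% of those probe sets were, so the genes stood near that share. Under both of these, Insig2 and Fasn were called with curdlan, Sc5d, Msmo1, Idi1 and Insig2 joined between the stimulated groups, and Sc5d and Fasn joined against control.

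**Figure D4:**
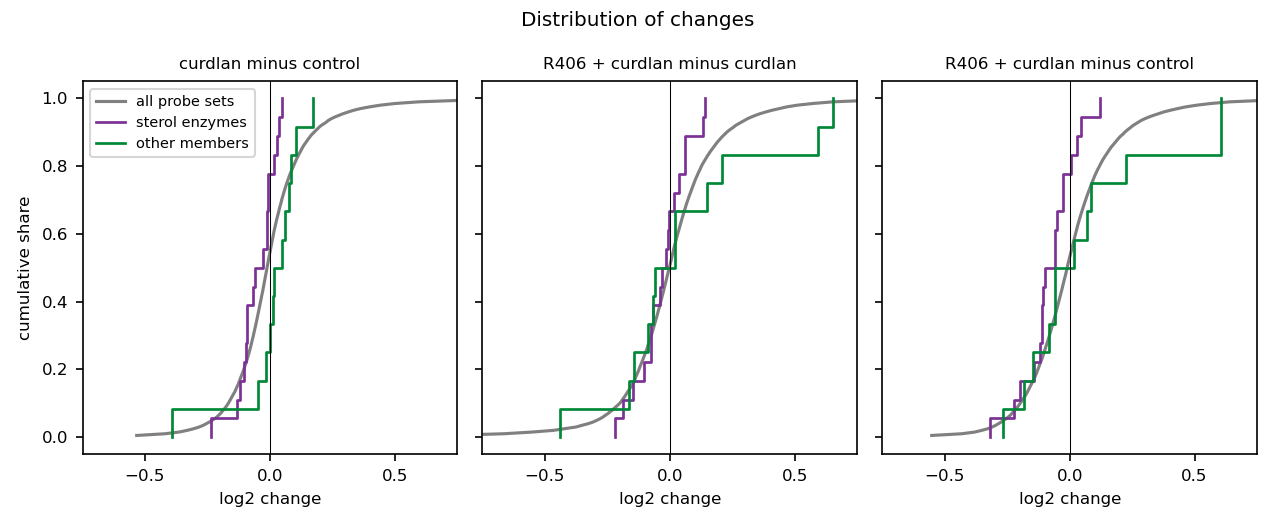
Cumulative share (y axis) of log2 differences (x axis) for all probe sets (grey), the 18 sterol enzymes (purple) and the other 12 genes (green) in the 3 comparisons. The purple curve lies left of the grey one over most of its upper part against control, and the green curve has steps near 0.6 for Mylip and Abcg1 in both R406 comparisons.

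Other genes of the pathway were read from 4 further lists. Of 16 measured genes of isoprenoid branches and sterol conversion, 0 were called in any comparison (limma, lowest adjusted p = 0.0628), while 2, 5 and 1 had an unadjusted p under 0.05 for the comparisons in the order above. In the same order 1.59%, 7.25% and 2.23% of all probe sets were called, so 0 of 16 stood near those shares. Of 13 genes of SREBP processing, degradation and cofactors, 1 rose with curdlan and 1 fell between the stimulated groups, and both were Nfyb. Over all probe sets 1.59% were called with curdlan and 7.25% between the stimulated groups, and over named genes 2.13% and 9.18%. Nfyb encodes a subunit of the CCAAT-binding factor NF-Y and read 9.23 and 9.21 in control, 9.65 and 9.66 with curdlan and 9.33 and 9.34 with R406 plus curdlan. It rose by 0.44 ± 0.0438 with curdlan (limma adjusted p = 0.0248) and fell by 0.32 ± 0.0438 between the stimulated groups (adjusted p = 0.0198). Without each array in turn, the first of these had an adjusted p from 0.107 to 0.157 and the other from 0.0469 to 0.139, the latter past the threshold only without a control array.

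Of 24 other lipogenic genes, 0 were called with curdlan, where 1.59% of all probe sets were. Between the stimulated groups 1 rose and 1 fell, where 7.25% of all probe sets and 9.18% of named genes were called, so the list stood near those shares. Lpin1, whose product makes diacylglycerol, read 11.45 and 11.50 in control, 11.02 and 11.17 with curdlan and 11.51 and 11.49 with R406 plus curdlan, and rose by 0.41 ± 0.063 over curdlan (limma adjusted p = 0.0266). Mid1ip1, which encodes an activator of acetyl-CoA carboxylase, read 11.59 and 11.47, then 11.81 and 11.84, then 11.45 and 11.47, and fell by 0.36 ± 0.0567 (adjusted p = 0.0284). In both genes the R406 arrays were close to control. Lpin1 was not called without any 1 of the 6 arrays (0.0515 to 0.152), and Mid1ip1 without any curdlan or R406 array (0.117 to 0.16).

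Of 22 other genes of LXR signalling and sterol transport, 3 rose and 0 fell between the stimulated groups, and 0 were called in the other comparisons. Between the stimulated groups 4.02% of all probe sets were called higher and 3.23% lower, and 9.18% of named genes were called in either direction. In the other comparisons 1.59% of all probe sets were called with curdlan and 2.23% against control. Rxrb, which encodes a partner of LXR in DNA binding, read 8.96 and 9.02 in control, 8.81 and 8.89 with curdlan and 9.30 and 9.33 with R406 plus curdlan. It rose by 0.46 ± 0.0544 over curdlan (limma adjusted p = 0.0129). Abca7, a transporter related to Abca1, rose by 0.36 ± 0.06 (adjusted p = 0.0326), and Osbpl11, an oxysterol-binding protein gene, by 0.26 ± 0.0486 (adjusted p = 0.044). Both R406 arrays lay above the other 4 in all 3 genes. Since the 3 were named for passing against curdlan, their place above the curdlan arrays came with that choice. No share of probe sets was taken for this pattern. Without any curdlan or R406 array none of the 3 was called (adjusted p from 0.0506 to 0.236), and Abca7 and Osbpl11 were also not called without either control array (0.0738 and 0.0843). The list's median was 0.11, beside -0.002 over all probe sets, and 15 genes were higher and 4 lower without overlap, where 27.7% and 25.6% of probe sets were. Those shares were not taken over brighter probe sets alone, and the list was not tested.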

How the data were processed

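The deposited values are log2 signals, 1 for each probe set on each array. Affymetrix Expression Console is the software that the submitters' processing notes name for them. The sources used here give neither its version nor the background correction, normalization or build, and the log2 base was inferred from the deposited range, which ended at 14.41. Biotin-labelled cDNA was made from total RNA, per the labels' protocols. Of 29214 probe sets, 15310 had 1 gene symbol in the platform annotation, 323 several and 13581 none. Columns of other samples numbered 0. The 6 arrays were fitted in 1 limma model of 3 groups (R 4.3.3, limma 3.58.1), with 3 residual and 2.16 prior degrees of freedom and no filter, after testing on simulated data. Whether same-group arrays came from separate cultures is not stated in the labels. The p-values therefore reflect only array-to-array spread, possibly technical, and the number of arrays limits precision. No detection call was used. Near-equal array medians mean that a change shared by most transcripts would not be seen. The 3 comparisons share arrays. All measured members are named. From the 4 other lists the 3 called genes with the largest change in each comparison are named. Nr1h2, Nr1h3, Lpcat3 and Apoe, which were not called, are named outside this rule. Members and lists were chosen with earlier results of these data known. Symbols and promoter windows came from RefSeq tables of GRCr8. Alternatives were leaving out each array, only the arrays compared, the replicate number as a block, quantile normalization, median centring, a signal filter, a mean-variance trend, the dimmest probe set per gene and a stricter threshold.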

Additional observations from a re-analysis of the deposited data

How the results depend on the processing

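With 2 arrays per group, the number of genes called depended on the variance model and on single arrays, while no called value changed sign in any alternative. For curdlan against control the count of called members was 0, but 2 of 28 when dimmer probe sets were left out (10.8% of the rest called) and 4 with a mean-variance trend (5.33% of all called). For R406 plus curdlan against curdlan it was 3, but 8 under each of these (25.4% and 12.9% called), and 0 to 3 without each array in turn, when 210 to 1232 of all probe sets were called in place of 2118. For R406 plus curdlan against control it was 3, but 5 and 6 under the same alternatives (15.6% and 8.01% called), 2 with centred arrays or the 4 arrays compared, 0 at an adjusted p under 0.01, and 0 to 2 without each array in turn. Replicate numbers marked no stated pairing. Deviations of same-numbered arrays correlated at -0.11, 0 and 0.11, and with the replicate number as a block the counts were 0, 3 and 0. The median over members ranged from -0.025 to -0.0014, from -0.041 to -0.022 and from -0.075 to -0.049 without each array in turn. Between the stimulated groups it was -0.038 after quantile normalization and -0.0024 with arrays centred on their median. Against control it was -0.034 with centred arrays. Members that were not called turned sign in at most 6, 3 and 2 of 30 genes under 1 alternative. Why the counts moved was not tested. All alternatives but those for the group medians and the other pathway genes, which were added after seeing the data, were planned.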

Other observations

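The LXR genes themselves, chosen after their values were seen, did not pass in any comparison. Nr1h2, which encodes the broadly expressed LXR, read 10.38 and 10.44 in control, 10.46 and 10.54 with curdlan and 10.64 and 10.63 with R406 plus curdlan, so the groups did not overlap. Its difference between R406 plus curdlan and control was 0.22 ± 0.0526 (limma adjusted p = 0.11). Nr1h3, the other LXR gene, had low signals of 6.59 and 6.46, 6.47 and 6.45, and 6.34 and 6.27, and the same difference was -0.22 ± 0.064 (adjusted p = 0.157). Lpcat3 and Apoe were likewise picked outside the naming rule, from the 22 other genes of LXR signalling and sterol transport. Lpcat3, an LXR-regulated phospholipid enzyme gene, stayed between 13.69 and 13.73 in all 6 arrays. Apoe, which encodes an apolipoprotein that LXR also raises, differed from control by -0.21 ± 0.0752 with R406 plus curdlan (limma adjusted p = 0.214).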
